A study of Homo sapiens with 2 samples.

Results

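The 7 genes PSMA1 to PSMA7 encode the alpha subunits of the 20S proteasome, and the NRF1 peaks at these genes were examined in HCT116 cells under proteasome inhibition. The genes were chosen by name, as the 7 alpha subunits among the 20136 protein-coding genes of the annotation, and a peak was assigned to a gene when its center lay within 20 kb of an annotated transcription start site (TSS) of that gene. Each of the 7 genes had exactly 1 such peak, so that 7 of the 5683 deposited peaks are described here. HCT116 cells come from a human colorectal carcinoma and are 1 established line, and they had been kept for 16 h in 1 µM MG132, a peptide aldehyde that blocks the proteasome. One NRF1 chromatin immunoprecipitation (ChIP) library, made with a rabbit polyclonal antibody raised against part of mouse NRF1, was sequenced and its peaks were called with MACS, while the input library of the study is not analysed here. There was no untreated ChIP library, so that the peaks describe the inhibited state alone. There were no replicates, the depth is unknown, and no difference between genes was tested. Expression is not measured by these data.

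The 20S proteasome is a barrel of stacked rings in which the outer rings are built from the alpha subunits and the inner rings from the beta subunits, some of which carry the proteolytic sites. The N-terminal tails of the alpha subunits, that of α3 above all, close the entrance to the chamber, and the pockets between neighboring alpha subunits receive the C-terminal tails of the 19S ATPases, which open the gate. NRF1 here is NFE2L1, a bZIP transcription factor of the endoplasmic reticulum membrane that is known to raise the transcription of proteasome genes when the proteasome is inhibited, and it binds antioxidant response elements (AREs) together with a small MAF protein. It is a different protein from nuclear respiratory factor 1, which shares the abbreviation.

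The sequences that carry the finding are the stretches of each peak that come closest to the ARE. The ARE consensus reads TGACNNNGC or TGAGNNNGC, and the form TGACTCAGC or TGAGTCAGC is called the full ARE here. In each of the 7 peaks a stretch of 9 bases with the fewest mismatches to the full ARE was taken, on either strand and, where several were equal, nearest to the peak center, from the genome build of the peaks (hg19). They are shown 5′ to 3′ on the strand of the match, with the 9 bases in capitals and 10 bases of context on each side, because they show which genes hold the full ARE and which do not.
PSMA1 (chr11:14541694-14541702, minus strand): gctccggcagTGATTCAGCatctccggcc
PSMA2 (chr7:42971723-42971731, plus strand): atacctgaatGTAGTCAGCgaaaagctgt
PSMA3 (chr14:58711925-58711933, minus strand): ctgaagaaagTGACTCAGCaatccaaagc
PSMA4 (chr15:78833002-78833010, plus strand): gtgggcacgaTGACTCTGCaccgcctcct
PSMA5 (chr1:109968721-109968729, plus strand): gacccaggggTGACTCAGCggtaggacaa
PSMA6 (chr14:35761758-35761766, minus strand): cgaacctggtTCACTCACCtacttggtag
PSMA7 (chr20:60718254-60718262, minus strand): tcgaccgcggTGAGGCGGCggggcctgcg
The full ARE was present in PSMA3 and PSMA5. The fewest mismatches were 1 in PSMA1 and PSMA4 and 2 in PSMA2, PSMA6 and PSMA7. The stretch shown is the only one at this number in PSMA3, PSMA4 and PSMA5, but 1 of 2 in PSMA1, of 5 in PSMA2, of 5 in PSMA6 and of 6 in PSMA7. In PSMA1 the stretch shown, TGATTCAGC, is outside the consensus, and the other one with 1 mismatch, TGAGTAAGC (chr11:14541326-14541334), is inside it. None of the 5 in PSMA6 is inside the consensus, and the one shown overlaps the splice donor of intron 1 on the opposite strand. A stretch with at most 2 mismatches was also found in 99.1% of all peaks with complete sequence. It was in 96.4% of 19122 promoter windows without a peak, which are described below. Having 2 mismatches thus does not set a stretch apart from most promoters.

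In 4 of the 7 peaks the match to the consensus that lies nearest to the peak center is another stretch than the one above, and these are shown in the same way.
PSMA1 (chr11:14541582-14541590, minus strand): gtcagctagaTGAGTTCGCccctcaggtt
PSMA2 (chr7:42971573-42971581, plus strand): gcctggcaaaTGACTTTGCaaagccgcat
PSMA5 (chr1:109968839-109968847, plus strand): gggagccccaTGACACGGCagaacccagg
PSMA6 (chr14:35761796-35761804, minus strand): gcacgtaccaTGACAGGGCaattcaggtg
The matches in PSMA2, PSMA5 and PSMA6, together with that in PSMA4, have an A on both sides of the 9 bases. These 4 thus share a longer form, TGACNNNGC with an A on each side.

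The peaks sat at the start of their genes. PSMA6, which encodes α1, lies on the plus strand of chromosome 14 (ENSG00000100902), and its peak ran from 35761323 to 35762103, with the center 125 bp downstream of the start of the canonical transcript, in the coding part of exon 1. PSMA2, which encodes α2, lies on the minus strand of chromosome 7 (ENSG00000106588), and its peak from 42971398 to 42971954 was centered 97 bp downstream, in intron 1. PSMA4, which encodes the gating subunit α3, lies on the plus strand of chromosome 15 (ENSG00000041357). Its peak ran from 78832620 to 78833360, with the center 204 bp downstream in intron 1, ahead of the coding sequence, which in this gene begins 1484 bp from the start.

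PSMA7, which encodes α4, lies on the minus strand of chromosome 20 (ENSG00000101182), and its peak from 60717864 to 60718672 was centered 182 bp downstream, in the coding part of exon 1. PSMA5, which encodes α5, lies on the minus strand of chromosome 1 (ENSG00000143106), and its peak from 109968537 to 109969277 was centered 163 bp downstream, in intron 1. PSMA1, which encodes α6, lies on the minus strand of chromosome 11 (ENSG00000129084), and its peak from 14541143 to 14542159 was centered 281 bp downstream, in intron 1. PSMA3, which encodes α7, lies on the plus strand of chromosome 14 (ENSG00000100567), and its peak from 58711511 to 58712329 was centered 359 bp downstream, in intron 1. All 7 peaks covered the canonical start, reaching 50 to 265 bp upstream of it and 375 to 789 bp downstream.

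**Figure D1:**
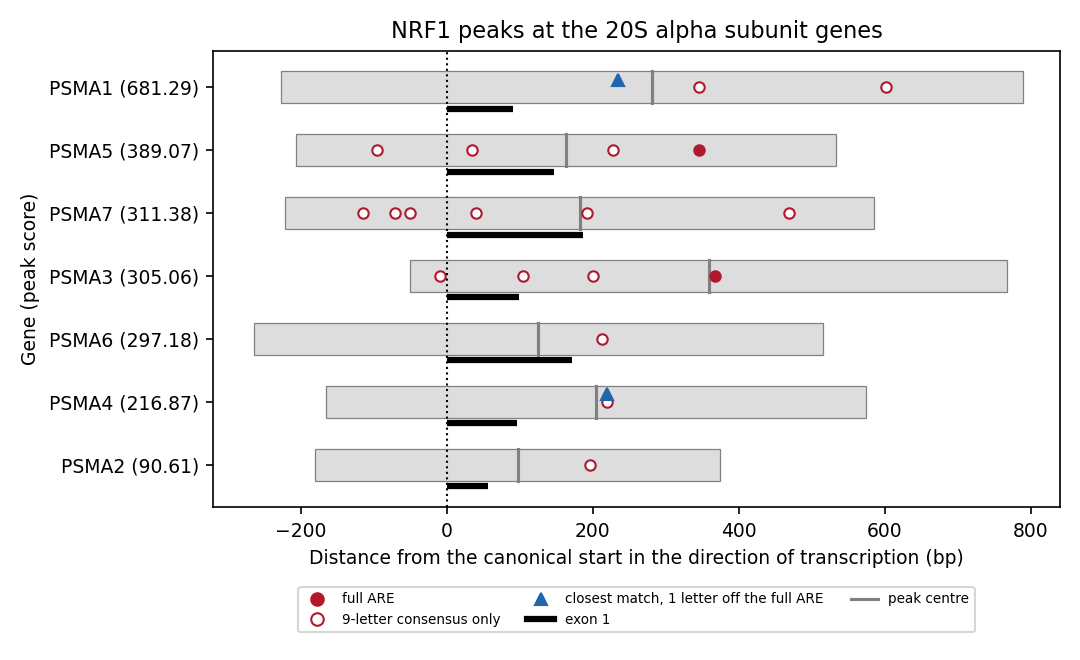
Peaks at the 7 genes (grey bars, sorted by score) against the distance from the canonical start in the direction of transcription, in bp. Vertical grey lines are peak centers, black bars exon 1, open circles matches to the ARE consensus, filled circles the full ARE and triangles the stretches 1 base off it that are shown for PSMA1 and PSMA4. All 7 centers lie 97 to 359 bp downstream of the start, and the match nearest to each center lies 192 to 368 bp downstream.

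The presence of a peak was shared by the whole family. All 7 genes had a peak center within 2 kb of an annotated TSS, as did 6.03% of the protein-coding genes and 3.1% of all 62259 annotated genes, and 18.7% of the protein-coding genes had one within 20 kb. The farthest of the 7 centers, that of PSMA3, lay 298 bp from the nearest TSS of its gene. The nearest peak beyond the 20 kb limit lay 24.4 kb from PSMA1 (chr11:14566164-14566638), with a score of 54.47 and a full ARE. At PSMA3 and PSMA2 the next peaks lay 28.1 and 33.9 kb away, scored 87.56 and 94.89, and also held a full ARE. For the remaining members the next peak was 61.8 to 214 kb away. The next peak to PSMA7, at 159.3 kb, is the peak at ADRM1, the gene of a ubiquitin receptor of the 19S particle, with a score of 781.39.

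All 7 centers lay downstream of the canonical start, between 97 and 359 bp, with a median of 182 bp. Of the 649 other peaks within 2 kb of the canonical start of a protein-coding gene, which include those of other proteasome genes, 332 (51.2%, 95% Wilson interval 47.3 to 55.0%) were centered downstream. At the 26 other proteasome genes the share was 21 of 26. The side depends on which start is taken. When each center was measured from the nearest annotated TSS of its gene, 5 of the 7 lay downstream and those of PSMA1 and PSMA4 lay 33 and 87 bp upstream. The deposited list gives no summit, so the center is the midpoint of the interval.

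The match to the consensus nearest to each center also lay downstream of the canonical start. This is not separate evidence, because the match was chosen for lying near the center. Measured from that start, the match lay at 192 bp in PSMA7, 196 bp in PSMA2, 212 bp in PSMA6, 220 bp in PSMA4, 227 bp in PSMA5, 346 bp in PSMA1 and 368 bp in PSMA3. By the canonical transcript all 7 matches were in intron 1, behind first exons of 57 to 187 bp. Those in PSMA1 and PSMA6 also overlap an untranslated region annotated in another transcript. Of the 21 other proteasome genes whose best peak held a match, the nearest one was downstream in 15 and in intron 1 in 10. A further 135 other peaks with a match were centered from 0 to 500 bp downstream of a protein-coding start. Among these the nearest match was downstream in 123 (91.1%). It was in intron 1 in 62 (45.9%, 95% Wilson interval 37.7 to 54.3%). The nearest match was on the strand of the gene in PSMA1, PSMA4 and PSMA7 and on the opposite strand in the other 4.

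The MACS score of a peak (−10 times the log10 of the p-value of its enrichment) differed widely within the family. PSMA1 had the highest score, 681.29, rank 47 of the 5683 peaks. PSMA5 followed with 389.07 (rank 237). PSMA7, PSMA3 and PSMA6 lay close together, with 311.38 (rank 377), 305.06 (rank 393) and 297.18 (rank 421). PSMA4 had a score of 216.87 (rank 797), and PSMA2 had the lowest, 90.61 (rank 2895). With 1 library the spread of a score is unknown, and this order is a description. The median of the 7 was 305.06, against 91.86 for the 5678 peaks on chromosomes 1 to 22, X and Y and 94.52 for the other peaks within 2 kb of a protein-coding canonical start.

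Of the members, 6 thus lay above the upper quartile of all peaks, which was 152.13, and PSMA2 lay just under the median. Set against the best peak of each of the 1215 protein-coding genes with a peak within 2 kb, whose median was 99.46, 27 genes scored higher than PSMA1, 269 higher than PSMA4 and 680 higher than PSMA2. PSMA2 (α2) lies between PSMA6 (α1) and PSMA4 (α3) in the ring, and its score was 126.26 below that of PSMA4. With a score of at least 100 required, PSMA2 would be the single member without a peak.

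**Figure D2:**
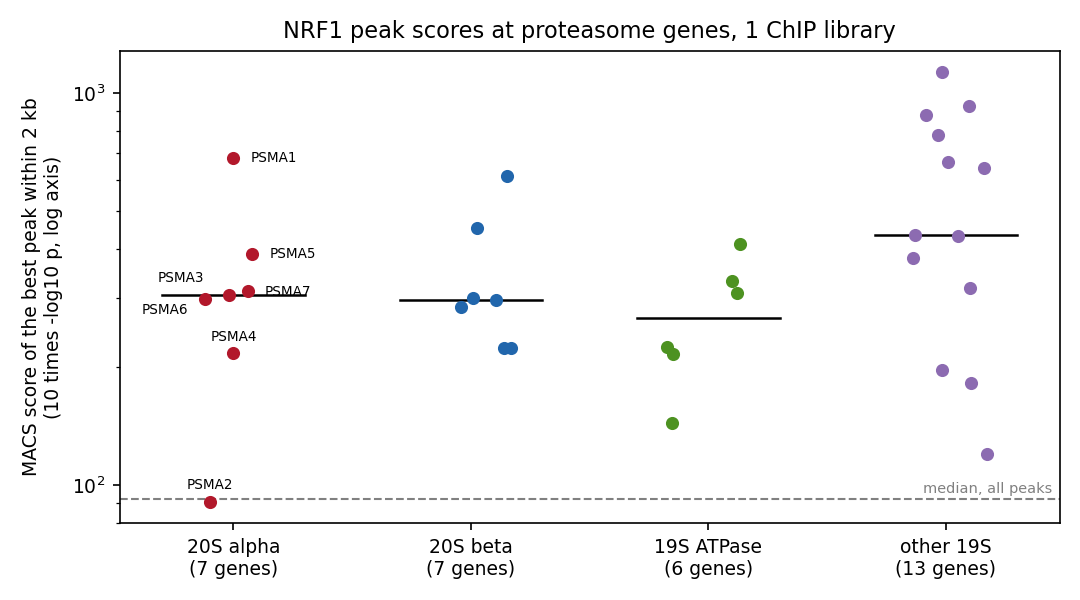
MACS score of the best peak within 2 kb of a TSS (log axis) for the 33 constitutive proteasome genes, 1 point a gene, with the median of each group as a black line and the median of all peaks dashed. The alpha subunits run from 90.61 at PSMA2 to 681.29 at PSMA1, and PSMA2 is the only one of the 33 points under the dashed line at 91.86.

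The peaks were also wide beside the whole list. Their median width was 781 bp, against 709 bp for the best peaks of the 26 other proteasome genes. For the other peaks within 2 kb of a protein-coding canonical start it was 518 bp. The widths were 1017 bp at PSMA1, 819 bp at PSMA3, 809 bp at PSMA7, 781 bp at PSMA6, 741 bp at both PSMA4 and PSMA5, and 557 bp at PSMA2, against a median of 501 bp for all peaks. PSMA1 was wider than 98.9% of all peaks and PSMA2 wider than 66.8%. Width went with score in the whole list, with a median width of 400 bp among peaks that scored up to 65.36 and 652 bp among those that scored from 152.13, so that the 2 measures are not separate evidence.

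**Figure D3:**
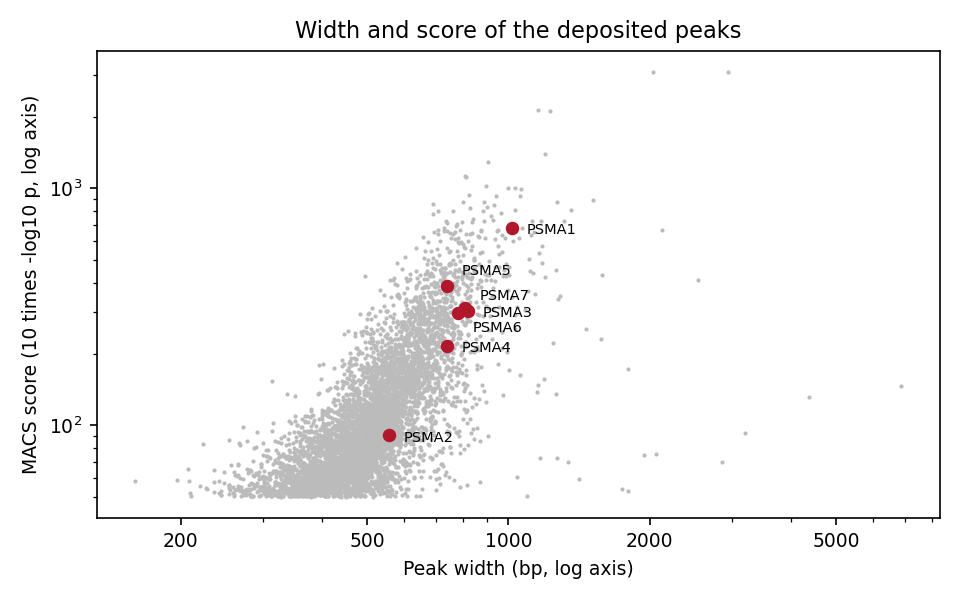
Width (bp) and MACS score of the 5683 deposited peaks on log axes (grey), with the 7 alpha subunit peaks in red. The members lie within the cloud of all peaks, PSMA1 at 1017 bp and 681.29 and PSMA2 at 557 bp and 90.61.

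The forms of the ARE were then counted beside their background. All 7 peaks held at least 1 match to the consensus, with 6 matches in PSMA7, 4 each in PSMA3 and PSMA5, 2 in PSMA1 and 1 each in PSMA2, PSMA4 and PSMA6. This count has a high background, and the alpha peaks (median 781 bp) are wider than all peaks (501 bp). A match was found in 87.4% of the 5673 peaks with complete sequence, and also in 58.4% of 19122 promoter windows of 781 bp that had no peak within 2 kb of the start and were placed like the alpha peaks. The full ARE was held by 2 of the 7 peaks. It was held by 61.3% of all peaks and by 30.2% of the 649 other peaks near a protein-coding start (95% Wilson interval 26.8 to 33.8%). The share was 1.08% in the promoter windows without a peak. The 7 peaks are a whole named family and not a sample of peaks. Their number is small, and likeness to either set of peaks was not tested.

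When 1 mismatch to the full ARE was allowed, 4 of the 7 peaks had a match, with PSMA1 and PSMA4 added to PSMA3 and PSMA5. The share was 89.1% in all peaks, 70.4% in the other peaks near a protein-coding start and 26.6% in the promoter windows without a peak. The longer form, TGACNNNGC with an A on each side, which was looked for only after the sequences had been read, was in 4 of the 7 peaks, those of PSMA2, PSMA4, PSMA5 and PSMA6. It was in 34.5% of all peaks, 16.5% of the other peaks near a protein-coding start and 0.936% of the promoter windows without a peak. Only PSMA7 held none of the 3 stricter forms, the full ARE, the full ARE with 1 mismatch and the longer form.

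**Figure D4:**
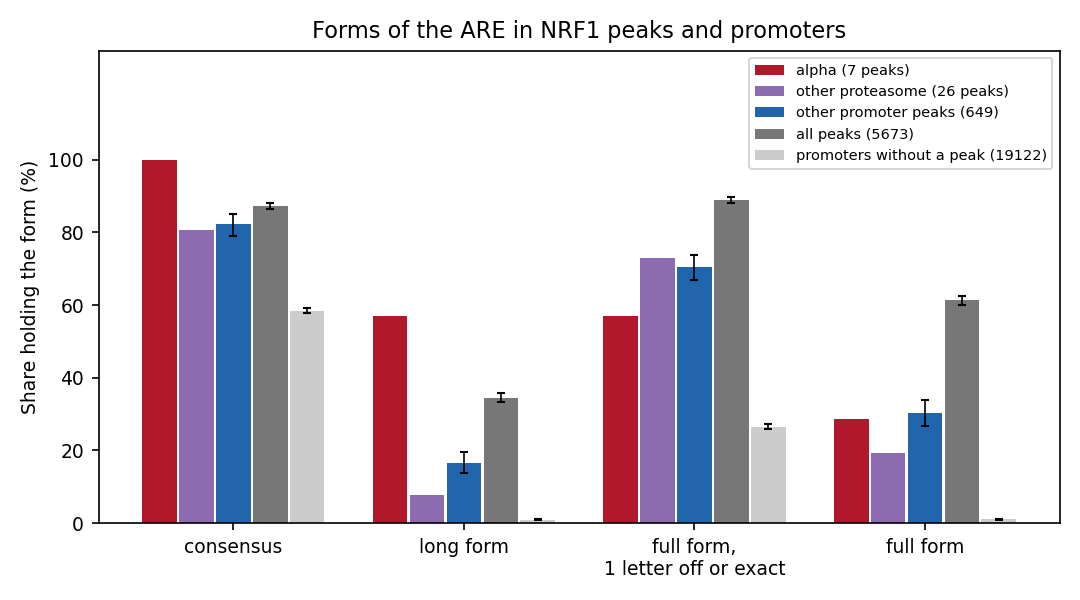
Share (%) of regions that hold each form of the ARE, for the 7 alpha peaks, the best peaks of the 26 other proteasome genes, 649 other peaks within 2 kb of a protein-coding canonical start, all 5673 peaks with complete sequence and 19122 promoter windows without a peak. The long form is TGACNNNGC with an A on each side. Error bars on the larger groups are 95% Wilson intervals, and the alpha bars stand for 7, 4, 4 and 2 of 7 peaks from left to right.

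Score and form did not run in the same order within the family. PSMA1, with the highest score, had no full ARE, and its 2 stretches with 1 mismatch to it, TGATTCAGC and TGAGTAAGC, lay 47 bp upstream and 321 bp downstream of the peak center. PSMA3 held the full ARE 9 bp from the center of its peak and scored 305.06, while PSMA7 held no stricter form and scored 311.38. In PSMA5 the full ARE lay 182 bp downstream of the center, and the match nearest to the center, TGACACGGC, lay 64 bp from it. In PSMA2, the peak with the lowest score, the single match to the consensus was 99 bp from the center, the largest distance of the 7. The median distance of the nearest match from the center was 64 bp in the members and 29 bp in all peaks. It was 36 bp in the other peaks near a protein-coding start and 45 bp at the 26 other proteasome genes. Among these it was 29 bp at the beta subunits, 18 bp at the ATPases and 71 bp at the other 19S subunits.

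PSMA3 and PSMA7 show how unlike peaks of nearly equal score can be. Both stretches are printed on the strand of the gene, with the match to the consensus in capitals, and in PSMA3 the full ARE is on the other strand and so reads GCTGAGTCA. The PSMA3 stretch (chr14:58711854-58712004, plus strand) lies in intron 1, from 293 to 443 bp downstream of the start, and has a G and C content of 52.3% with 8 CpG sites. The PSMA7 stretch (chr20:60718198-60718318, minus strand) spans the end of exon 1 and the start of intron 1, from 132 to 252 bp downstream, with a G and C content of 74.4% and 14 CpG sites.
PSMA3: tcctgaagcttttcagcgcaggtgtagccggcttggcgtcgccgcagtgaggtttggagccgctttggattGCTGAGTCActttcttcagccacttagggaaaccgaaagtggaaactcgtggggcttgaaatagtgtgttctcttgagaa
PSMA7: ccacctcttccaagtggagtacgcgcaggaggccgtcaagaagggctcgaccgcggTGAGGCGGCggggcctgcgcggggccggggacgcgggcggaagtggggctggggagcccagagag
The PSMA7 match overlaps the first bases of intron 1, where the splice donor itself reads GTGAGG. The match TGAGTTCGC in PSMA3, 104 bp from the start, overlaps the donor of intron 1 as well, as does the PSMA6 stretch TCACTCACC, which is outside the consensus. Of the promoter windows without a peak whose canonical transcript is spliced, 4.91% held a match to the consensus that overlaps this donor. Over the whole peaks the G and C content was 49.9% in PSMA3 and 79.6% in PSMA7, the lowest and the highest of the 7, with a median of 59.4% in the other peaks near a protein-coding start.

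Other short sequences of promoters were looked for on both strands of the 7 peaks. CCAAT, the core of the NF-Y site, was in 5 peaks, those of PSMA2, PSMA3, PSMA4, PSMA5 and PSMA6. It was in 50.6% of all peaks, 44.2% of the other peaks near a protein-coding start and 54.1% of the promoter windows without a peak. GGGCGG, the core of the Sp1 site, was in 6 peaks and not in that of PSMA3, in 17.4% of all peaks, 61.8% of the other peaks near a protein-coding start and 74.2% of the windows. The palindromic motif of nuclear respiratory factor 1 was in the PSMA4 peak alone, centered 12 bp upstream of the start. It was in 0.212% of all peaks, 1.08% of the other peaks near a protein-coding start and 1.92% of the windows. TGACGTCA, the CRE site, was in 0 of the 7 peaks, in 0.617% of all peaks, 2.31% of the other peaks near a protein-coding start and 2.96% of the windows. TGACTCA, the AP-1 core that reads TGAGTCA on the other strand and is part of the full ARE, was present in PSMA3 and PSMA5, in both cases within the full ARE. The core was in 75% of all peaks, 41.8% of the other peaks near a protein-coding start and 6.63% of the windows. Of the best peaks at the 26 other proteasome genes, 17 held CCAAT, 22 GGGCGG and 11 the AP-1 core. The CRE site was in 1 of these and the nuclear respiratory factor 1 motif in 0. The alpha peaks (median 781 bp) were wider than all peaks (501 bp) and the other peaks near a protein-coding start (518 bp). A wider interval can hold more matches, so the shares were not taken at equal length. None of these counts was tested, and a match is a description of the letters and not a site of binding.

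Some of the peaks also lay at the start of another gene. The PSMA2 peak was 299 bp from the start of MRPL32, which encodes a protein of the large mitochondrial ribosomal subunit and is transcribed in the other direction from a start 202 bp away from that of PSMA2. The PSMA7 peak was 557 bp from the start of SS18L1, which encodes a calcium-responsive transactivator and also runs in the other direction. A protein-coding gene on the opposite strand thus had a start within 2 kb at 2 of the 7 peaks. It did so at the best peak of 3 of the 26 other proteasome genes. The share was 20.3% of the 1209 protein-coding genes with a peak within 2 kb and a canonical transcript. On the same strand, PSMA1 and PSMA2 each had 1 protein-coding gene known by its identifier, ENSG00000256206 and ENSG00000256646. These have starts 42 and 3 bp from the canonical starts of PSMA1 and PSMA2, and so hardly differ from them in position. PSMA6 had the miRNA gene AL121594.1, also on its strand, with a start 896 bp from its own. The ChIP data do not tell which of the genes at such a peak NRF1 acts on. The peaks had no 20-base stretch in common in any of the 21 pairs of members, on either strand.

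The other constitutive proteasome genes also had peaks near their starts. All 26, the 7 beta subunits, the 6 ATPases and 13 other 19S subunits, had a peak within 2 kb of a TSS. Their scores ran from 119.94 to 1128.13 with a median of 324.68, while the median was 296.08 for the beta subunits, 266.57 for the ATPases and 433.37 for the other 19S subunits. The highest scores were 1128.13 at PSMD14, which encodes the deubiquitinase of the lid, 925.88 at PSMD1, a scaffold of the base, and 880.07 at PSMD11, a lid subunit. Among the 33 genes PSMA1 was the fifth by score and PSMA2 the last. The alpha median thus lay between those of the ATPases and of the other 19S subunits.

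The sequence forms were counted in the same groups, and no difference between groups was tested. The full ARE was in 0 of the 7 beta peaks and 0 of the 6 ATPase peaks, and in 5 of the 26 others in all, those of PSMD1, PSMD2, PSMD7, PSMD11 and PSMD12. At most 1 mismatch to it was found in 4 of the 7 beta peaks, 2 of the 6 ATPase peaks and 19 of the 26. The longer form, in 4 of the 7 alpha peaks, was in 2 of the 26, those of PSMD3 and ADRM1, but it had been read from the alpha peaks themselves. These genes were named after their values were seen.

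PSMA8, the paralogue of PSMA7 that replaces it in the proteasome of the testis, had no peak within 20 kb of any of its starts on chromosome 18. The nearest peak was 202.6 kb away. Absence means that no interval there is in the deposited list, whose lowest score is 50, and not that the gene is unbound.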

How the data were processed

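One NRF1 ChIP library of MG132-treated HCT116 cells was analysed, while the input library was not used. According to the methods and the submitters' processing notes, single-end reads were mapped to hg19 with Bowtie2 (2.2.6) and peaks were called with MACS (1.4.2). The settings, the handling of duplicate reads and the control library are not given in the sources used here. The deposited file gives the position and the score of each peak, and the authors' score is −10 times the log10 of a p-value, the lowest being 50. The depth is unknown, and intervals of shares cover counting error only.

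The reference was GRCh37, which is hg19 for these chromosomes, with the GENCODE annotation (release 44) on that build and Ensembl canonical transcripts. The autosomes and sex chromosomes held 5678 of the 5683 peaks, and 5 of these with undetermined bases were left out of the sequence counts. Starts in the deposited intervals count from 0 and were raised by 1. Peak centers were midpoints. The best peak of a gene was its highest-scoring one within 2 kb of a TSS. Promoter windows without a peak had the median width (781 bp) and offset (182 bp) of the alpha peaks. Genes named are the 7 members, PSMA8, genes starting within 2 kb of a member's peak, other proteasome genes without a peak and the 3 of these genes with the highest scores. PSMD2, PSMD3, PSMD7, PSMD12 and ADRM1 were named outside this rule, after their values were seen. Members and lists were chosen with earlier results of these data known. The search for sequences was tested on simulated data. Sequences were read with pysam (0.24.0), and pandas (2.3.3), scipy (1.17.1), numpy (2.4.6) and matplotlib (3.10.9) were run under Python (3.11.15).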

Additional observations from a re-analysis of the deposited data

How the results depend on the processing

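With 1 library no value has a replicate error, and no paired analysis was possible because there was 1 ChIP library. All 7 alpha genes kept a peak within 2 kb with a window of 500 bp or 20 kb, with distances from the edge of the peak and with canonical starts only, and 6 did with a score of at least 100. All 26 other proteasome genes kept theirs under each of these. The window of 20 kb and the distance from the edge could only keep or add genes, so they could not lower either count. The median score of the other proteasome genes was 324.68 also with the best peak within 20 kb or the peak nearest to a TSS, while for the alpha genes, with 1 peak each, these choices could not change it. The sequence counts moved more. Within the central 200 bp, 6 peaks held the consensus. The share was 80.2% in all peaks and 69.6% in the other peaks near a protein-coding start. In that span 1 peak held the full ARE (57.9% and 27.4% of the same sets) and 1 the AP-1 core (68.9% and 35.6%). CCAAT was in 2 (23.8% and 18.8%) and GGGCGG in 2 (8.81% and 37.0%). The nuclear respiratory factor 1 motif was in 0 (0.106% and 0.924%). With 1 mismatch to the full ARE allowed, the count was 4 in place of 7 for the consensus and of 2 for the full ARE, and for the longer form, added after the data were seen, it was also 4. Adding 200 bp on each side left the full ARE at 2 peaks, while the consensus, already in all 7, could not change. The median distance from the TSS was 182 bp from the canonical start, 87 bp from the nearest annotated TSS and 220 bp for the match nearest to the center. These changes follow from the narrower search, the other letters or the other starting point.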
